A study of Mus musculus with 2 samples.

Results

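Upp1 encodes uridine phosphorylase, and 10 genes of pyrimidine salvage and synthesis were examined with it in mouse embryonic stem cells in which doxycycline switches on 4 reprogramming factors. The 10 genes are Upp1, Upp2, Uck1, Uck2, Cda, Tymp, Dhodh, Umps, Cad and Tk1. They were selected on the difference that Upp1 showed between the same 2 arrays and on the pathway to which the others belong, so the value of Upp1 is a description and supports nothing. A gene was measured when at least 1 probeset, the group of probes summarised to 1 value, was assigned to that gene alone, and its value was the mean of such probesets. By this rule 9 of the 10 genes were measured, of 19938 genes in all.

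The cells were i-OSKM-ESC of strain 129, made from the KH2 embryonic stem cell line and carrying transgenes for Klf4, c-Myc, Oct4 and an epitope-tagged Sox2 that doxycycline induces. Both groups carried the same transgenes. One group received doxycycline at 4 µg/mL, a day after plating on gelatin, and was collected 24 hours later. The other was refed without it. Each condition had 1 whole-transcript array, so no value carries a replicate error and no test between the conditions was possible. Because parental KH2 cells given doxycycline were not analysed here, the drug and the factors cannot be told apart as sources of a difference.

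Cells obtain pyrimidine nucleotides by building uridine monophosphate anew or by salvaging nucleosides. Cad carries the first steps of synthesis, Dhodh oxidises dihydroorotate in mitochondria, and Umps completes uridine monophosphate. In salvage, the kinases Uck1 and Uck2 phosphorylate uridine and cytidine, Tk1 phosphorylates thymidine, and Cda converts cytidine to uridine. Uridine phosphorylase works on the same nucleoside as the uridine kinases, but splits it into uracil and ribose 1-phosphate. Thymidine phosphorylase, encoded by Tymp, splits thymidine in a reaction of the same type.

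The promoters of Upp1, of the uridine kinase gene Uck1 and of the synthesis gene Umps are shown because Upp1 is the member that differed and the other 2 act on uridine or make its nucleotide. Each sequence is the 250 bases before the outermost annotated start of the gene, from RefSeq on assembly GRCm38.p6, read 5′ to 3′ on the strand of the gene. Upp1 lies on the forward strand (chr11:9117758-9118007), and Uck1 (chr2:32260106-32260355) and Umps (chr16:33967039-33967288) lie on the reverse strand. Capitals mark matches, on either strand, to a motif of the induced factor families.
Upp1: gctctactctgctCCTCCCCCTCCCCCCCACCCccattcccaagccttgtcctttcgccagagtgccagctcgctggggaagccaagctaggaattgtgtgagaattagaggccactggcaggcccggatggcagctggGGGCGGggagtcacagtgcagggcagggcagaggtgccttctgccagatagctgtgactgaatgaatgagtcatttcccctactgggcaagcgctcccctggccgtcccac
Uck1: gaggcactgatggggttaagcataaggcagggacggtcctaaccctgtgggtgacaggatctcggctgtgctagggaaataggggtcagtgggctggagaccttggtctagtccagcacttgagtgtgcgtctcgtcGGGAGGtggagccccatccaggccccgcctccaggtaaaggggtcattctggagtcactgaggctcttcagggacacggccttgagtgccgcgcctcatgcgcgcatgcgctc
Umps: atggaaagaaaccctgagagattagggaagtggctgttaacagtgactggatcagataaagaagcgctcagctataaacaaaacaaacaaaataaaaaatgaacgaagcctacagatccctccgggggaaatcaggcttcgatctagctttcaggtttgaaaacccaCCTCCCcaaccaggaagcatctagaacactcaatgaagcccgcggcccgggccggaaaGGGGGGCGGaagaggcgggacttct

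The motifs searched were the octamer ATGCAAAT for Oct4, ACAAAG for Sox factors, GGGNGG for Krüppel-like factors and CACGTG, the E-box bound by Myc. All capitals in the 3 sequences are GGGNGG or its reverse complement. The Upp1 window held 6 such matches, 5 of them in the C-rich run near its 5′ end, where 4 overlapped. The windows of the other 2 annotated Upp1 starts, not shown, held 1 match each. The window starting at 9117853 overlaps the shown one, and its match is the GGGCGG capitalised there. The Uck1 window held 1 and the Umps window 3, of which 2 overlapped. This motif was present in 64.5% of the 32851 windows of the same length in the RefSeq table. The octamer, present in 1.60% of windows, the Sox motif, in 16.5%, and the E-box, in 6.02%, had 0 matches in each of the 3 windows. A match is a run of letters and not a measured binding site, and a motif without a match is only missing from these letters.

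With doxycycline, the level of Upp1 was 5.19-fold lower. It was log2 8.90 on the treated array and log2 11.28 on the untreated one, a log2 difference of -2.37. Upp1 has 1 probeset, and both values lay above the expression filter, which required the higher of a gene's values to reach 6.48, the median of the table. No gene among the 11191 that passed the filter had a lower difference, and the next was Elobl at -2.29. Genes of like mean expression had differences with a robust SD (from the median absolute deviation) of 0.18 around a median of -0.02. That spread is between genes of the same arrays and is not an error between cultures. In bulk RNA, fewer cells that express Upp1 and less Upp1 RNA per cell cannot be told apart.

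**Figure D1:**
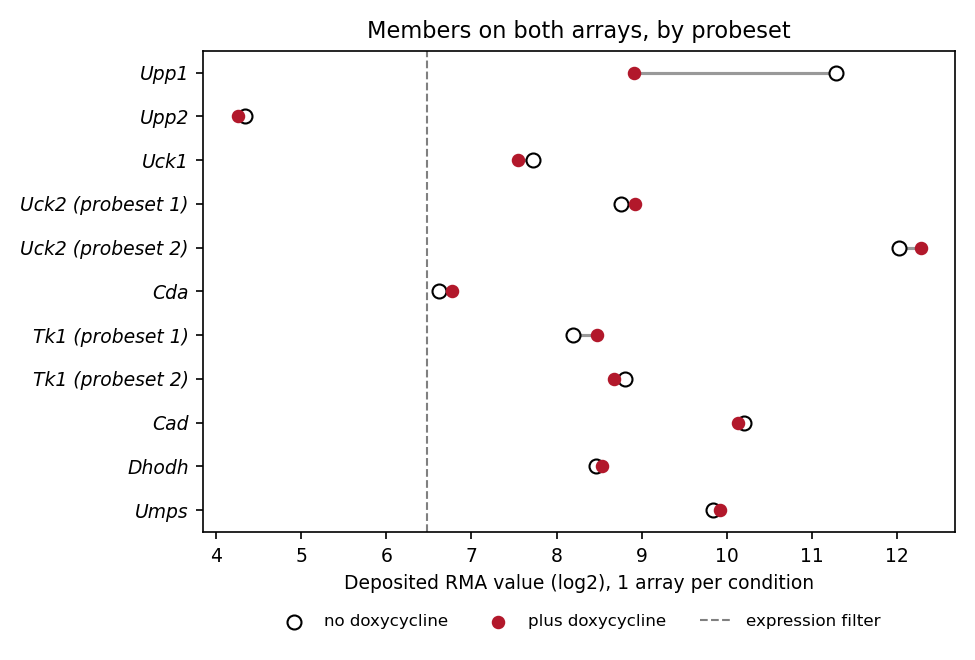
Deposited log2 values of the 9 measured members, 1 row per probeset (horizontal axis, log2 RMA value), with open circles for the array without doxycycline, filled circles for the array with it and a dashed line at the expression filter. The Upp1 circles lie far apart, at 8.90 and 11.28, and those of every other probeset lie close together.

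The second uridine phosphorylase gene, Upp2, had log2 values of 4.25 with doxycycline and 4.33 without it, a difference of -0.08. Both lay below the expression filter, and the table gives no detection call, so these levels cannot be told from background. Both also lay below 5.07, the 25th percentile of the table, whose lowest value was 2.49.

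The uridine and cytidine kinase genes differed little. Uck1 had log2 7.54 with doxycycline and 7.72 without, a difference of -0.18. Uck2 had 2 probesets, with log2 8.92 against 8.76 and 12.28 against 12.03, both higher with doxycycline, by 0.15 and 0.25. Their mean gave Uck2 a difference of 0.20, or 1.15-fold higher. The values of Uck1 and Uck2 thus lay on opposite sides of 0, and differences of at least the size of Uck1's occurred in 47.1% of genes passing the filter, and of Uck2's in 42.7%.

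Cda, the cytidine deaminase gene, had log2 6.78 with doxycycline and 6.62 without, a difference of 0.16 just above the expression filter. Tk1, the thymidine kinase gene of dividing cells, had a mean difference of 0.07, but its 2 probesets went opposite ways. The first had log2 8.47 with doxycycline and 8.20 without, a difference of 0.27, and the second 8.68 and 8.81, a difference of -0.13. Tk1 lies on chromosome 11, as did the genes of all 10 nearest named probesets in the numbering around the first one. Around the second, all 10 belonged to genes of chromosome 8. The sources used here do not give which sequence the second probeset reads, and the direction for Tk1 is uncertain.

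Tymp shared its probeset with Sco2, a mitochondrial copper chaperone gene, and so had no value of its own. That probeset had log2 6.88 with doxycycline and 6.82 without, a difference of 0.06 that cannot be divided between both genes.

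The genes of new synthesis were nearly level between the arrays. Cad had log2 10.13 with doxycycline and 10.20 without (difference -0.07). Dhodh had 8.54 and 8.46 (difference 0.07), and Umps had 9.92 and 9.84 (difference 0.08). Differences at least as large as these occurred in 75.7% of genes passing the filter for Umps, 76.9% for Dhodh and 76.9% for Cad, so each was smaller than that of most genes.

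Of the 9 measured members, 8 passed the expression filter, and 1 of the 8, Upp1, was at least 2-fold lower, while 0 were at least 2-fold higher. Over all genes passing the filter, 1.69% differed at least 2-fold, 0.92% being higher and 0.768% lower. Since Upp1 was chosen for its fall, nothing is read from this count. At 1.5-fold, which 7.04% of genes passed, Upp1 was still the only member. The median difference of the 9 members was 0.07, with 5 positive and 4 negative, against a median of 0.01 over all 19938 genes. Without Upp1 the remaining 8 ran from -0.18 to 0.20. For comparison, the log2 differences of probesets of the same gene varied with an SD of 0.17, pooled over the 492 genes with 2 probesets passing the filter.

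**Figure D2:**
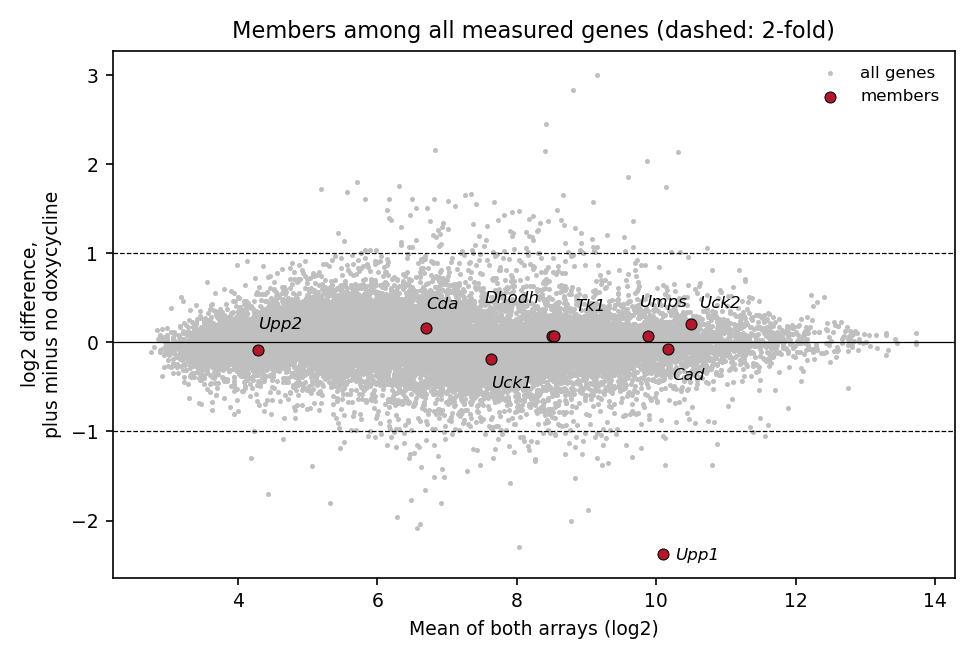
Log2 difference, plus minus no doxycycline (vertical axis), against the mean log2 value of both arrays (horizontal axis), with all 19938 genes in grey, the 9 members in red and dashed lines at 2-fold. Upp1 lies at -2.37, a little below the next gene passing the filter (Elobl at -2.29), and the other 8 members lie between -0.18 and 0.20.

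The wider pathway was described by 6 lists around pyrimidines, pentose phosphates and transport. In the salvage list, 10 of 11 genes were measured, the median difference was -0.09, and Upp1 was the only gene past 2-fold. Uprt, named for its similarity to uracil phosphoribosyltransferase, had log2 8.39 with doxycycline and 8.04 without, a difference of 0.35 that was the largest positive one of that list.

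The list for synthesis up to UTP and CTP had all 11 genes measured, a median of -0.07, and 0 genes past 2-fold. Its largest differences were those of Ctps2, one of the CTP synthases, at -0.71 (log2 7.83 with doxycycline and 8.54 without), and Nme4, a mitochondrial nucleoside diphosphate kinase gene, at -0.50 (7.76 and 8.26). The paralog Ctps, chosen once its values had been seen, differed by 0.06. Cmpk1, the UMP and CMP kinase gene, followed at -0.19.

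Deoxynucleotide and thymidylate synthesis genes were mostly slightly lower, with 8 of 9 measured differences negative, a median of -0.17 and 0 past 2-fold. Tyms, the thymidylate synthase gene, had -0.33 and Dut, which removes dUTP, -0.29. Rrm2, a ribonucleotide reductase subunit gene, had 0.33. Over all genes passing the filter, as these 9 did, 55.5% of differences were negative and the median was -0.03.

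Among 10 genes of pyrimidine breakdown, all measured, the median was -0.05 and 1 of the 7 passing the filter was past 2-fold. It was Nt5e, which encodes CD73, a cell-surface nucleotidase that releases nucleosides outside the cell. Nt5e had log2 7.88 with doxycycline and 6.36 without, a difference of 1.53. It passed the filter only through the treated array, and its value without the drug cannot be told from background, so the size of the difference is uncertain (1.23 after 32 was added to the linear values). The cytosolic pyrimidine nucleotidase gene Nt5c3 had a difference of 0.57 and the mitochondrial Nt5m -0.21. Dpyd, Dpys and Upb1, the genes that degrade uracil, the base that uridine phosphorylase releases, were all below the filter and had differences of -0.06, -0.04 and -0.11. They were named after their values were seen.

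Nucleoside and nucleotide carriers had a median difference of 0.01 over 9 measured genes, with 0 of the 7 passing the filter past 2-fold. The equilibrative carrier genes Slc29a3 and Slc29a1 differed in opposite directions, by 0.47 and -0.43, and the mitochondrial pyrimidine nucleotide carrier gene Slc25a33 had -0.37. Slc28a3, named after its value was seen, had the largest difference of the list, 0.80. It lay below the filter on both arrays (log2 6.13 with doxycycline and 5.33 without). In the list for ribose phosphate handling, 6 of 8 differences were negative, the median was -0.21 and 0 genes were past 2-fold. Pgm1, which interconverts glucose phosphates, was 1.93-fold lower (log2 7.19 with doxycycline and 8.14 without, a difference of -0.95). Pgm2l1, a Pgm2-like gene, had 0.40 and the ribokinase gene Rbks -0.36. Pgm2, which acts on pentose phosphates such as the ribose 1-phosphate made by uridine phosphorylase and was named after its value was seen, had 0.13.

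**Figure D3:**
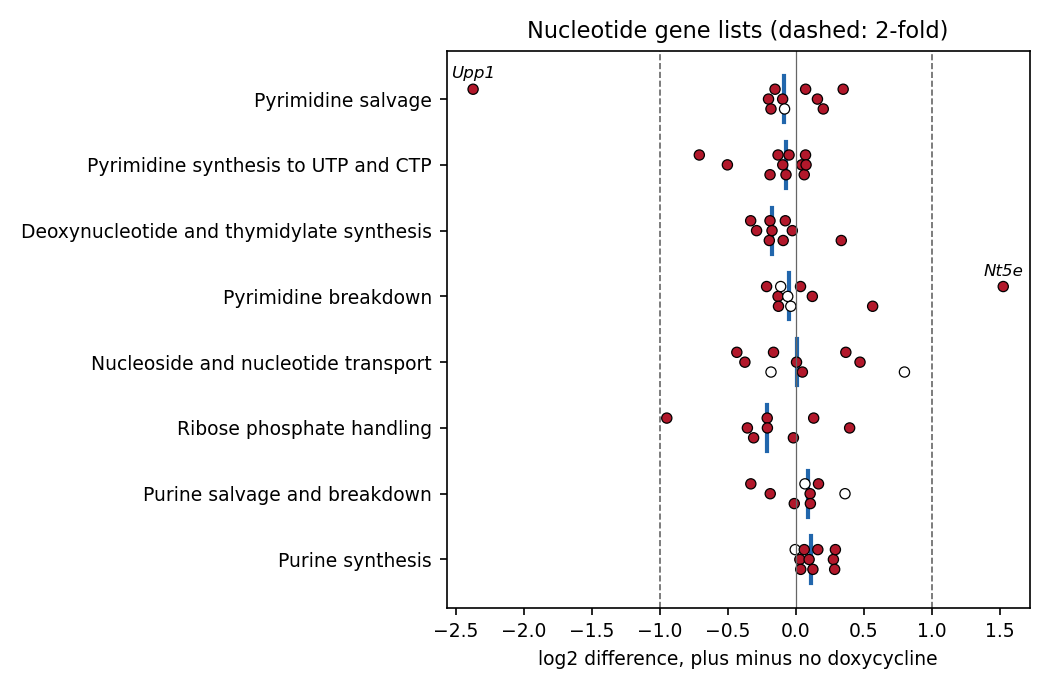
Log2 difference, plus minus no doxycycline (horizontal axis), of each measured gene in 8 nucleotide gene lists, filled where the gene passed the expression filter and open where it did not, with a blue bar at the median of each list and dashed lines at 2-fold. Upp1 at -2.37 and Nt5e at 1.53 are the points beyond 2-fold.

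The genes with values most like those of Upp1 were taken as the 5 passing the filter with the smallest distance over both log2 values. They were Mkrn1, a ubiquitin ligase gene, at a distance of 0.70, Dppa2 at 0.92, Fblim1 at 0.94, Wsb2 at 0.95 and Smad7, an inhibitor of TGF-beta and BMP signalling, at 0.99. Their differences, from -1.05 for Fblim1 to -1.38 for Mkrn1, were smaller than that of Upp1. The place of Upp1 as the lowest gene passing the filter fixes this. Levels on an array also depend on the probes, and the distance carries that.

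Genes next to Upp1 in the gene order had smaller differences. The place of Upp1 as the lowest gene passing the filter fixes that none was lower, but only for neighbours that passed it too. The 3 nearest measured genes before it were Gm11992 (-0.12), Sun3 (-0.18) and Hus1 (-0.29), and the 3 after it were Abca13 (0.15), Vwc2 (-0.13) and Zpbp (-0.37). Hus1, a DNA damage checkpoint gene, was the only one of the 6 that passed the filter. The others lay below it on both arrays and cannot be told from background, so a fall could hardly be seen in them.

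The state of the cells and the label were checked on the same arrays. All 8 embryonic stem cell markers passed the filter, from Pou5f1 to Utf1, and 6 of the 8 were lower with doxycycline. Their median difference was -0.44, and their summed linear signal was 24515 against 30644. The 2 that were higher were Fgf4 (0.003) and Pou5f1 (0.41). Pou5f1 is itself an induced factor, and its rise makes the fall of the sum smaller. Of 7 measured fibroblast or feeder markers, 6 were higher, with a median of 0.27 and a summed signal of 676 against 545, and Postn, Dcn and Lum lay below the filter in both arrays. Summed signals of trophoblast markers (254 against 245) and extraembryonic endoderm markers (521 against 535) were nearly level. The part of these shifts in the lower value of Upp1 was not tested. Of the 4 induced factors, Pou5f1 (0.41), Klf4 (0.43) and Myc (0.35) were higher and Sox2 (-1.01) was lower with doxycycline. The sources used here do not say whether their probesets read the transgenes, so the factors do not settle which array received the drug, and all directions rest on the labels.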

How the data were processed

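RNA of each condition was hybridised as labelled cDNA to 1 whole-transcript array. The authors deposited log2 values of 35556 probesets for both arrays, made with Affymetrix Expression Console and RMA, per the submitters' processing notes. RMA corrects background, equalises the arrays and summarises probes, so a shift common to most transcripts would be hidden, and differences of dim genes are compressed. Versions and the genome build were not given in the sources used here. A log2 scale was inferred from the values (2.49 to 14.2). The number of arrays limits the precision.

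Genes were named from the platform annotation: 21789 probesets had exactly 1 gene, 1621 several and 12146 were unlisted. Only the 21789 were used. Fold changes were computed from differences of log2 values. A gene was called past 2-fold if it differed at least 2-fold and its higher value reached 6.48, the table's median. No test was made. The genes named were the 10 members, the 3 most different genes passing the filter in each of 8 lists and any past 2-fold, the 5 nearest Upp1 in value, 3 neighbours on each side and marker genes. Also named were the induced factors, Elobl as the next lowest gene and Sco2 as the gene sharing the Tymp probeset. Other exceptions are marked in the text. Members and lists were chosen with earlier results of these data known, and the separate values for Tk1 were added after seeing the data. Robust SDs came from 20 bins of mean expression. Alternatives were a filter at percentile 25, no filter, loess centring, quantile normalization, an offset of 32, the brightest probeset and a 1.5-fold threshold. The steps were also run on simulated arrays with the same noise at all levels and changes only in bright genes. Recovery of changes in dim genes was thus not tested. The tools were pandas 2.3.3 and NumPy 2.4.6 under Python 3.11.15, with statsmodels 0.14.6 for loess and matplotlib 3.10.9 for plots.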

Additional observations from a re-analysis of the deposited data

How the results depend on the processing

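The difference of Upp1 lay between -2.37 and -2.30 under loess centring, quantile normalization and an offset of 32 on the linear scale. It stayed past 2-fold in each. The brightest-probeset setting could not change genes with 1 probeset, among them Upp1 and Nt5e. Among 31 genes named from the members and lists, the sign changed for 1, Tk1, which had -0.13 by its brightest probeset and 0.27 by the probeset numbered among genes of its own chromosome, the latter chosen after seeing the data. Nt5e lay between 1.23 and 1.54 and stayed past 2-fold. The median of the members turned from 0.07 to -0.07 with the brightest probeset. The medians of the 8 lists kept their sign under loess centring, quantile normalization, the offset and the brightest probeset. Only lists holding a gene with more than 1 probeset could change under the last. The medians cover all measured genes and were not recomputed for the other filters. Over the 7 pyrimidine breakdown genes passing the main filter, the median was 0.03, against -0.05 over all 10. With the offset, 66 genes were higher and 49 lower past the threshold, against 103 and 86. At 1.5-fold, the counts were 363 and 425, and the lists for synthesis to UTP and CTP (Ctps2) and for ribose phosphate handling (Pgm1) each gained 1 gene. No paired analysis was possible because each condition has 1 array. No array could be left out, and signal near background limits what can be said of Upp2, Dpyd, Dpys, Upb1 and Slc28a3.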

Other observations

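Purine genes, which supply the other nucleotides, were described in 2 lists of their own. In purine synthesis, 9 of the 10 measured differences were positive, with a median of 0.11 and 0 genes past 2-fold. Ppat, the gene of the committed step, had 0.29, Adss, an adenylosuccinate synthase gene, 0.29 and the IMP dehydrogenase gene Impdh1 0.28. In purine salvage and breakdown, 5 of 8 differences were positive, with a median of 0.09 and 0 genes past 2-fold. The adenosine kinase gene Adk had -0.33, Hprt, which salvages hypoxanthine and guanine, 0.17, and Pnp, the purine nucleoside phosphorylase gene and the purine counterpart of Upp1 in reaction type, -0.19 (log2 9.72 with doxycycline and 9.90 without). Over all genes the median was 0.01 and 48.3% of differences were negative. Over genes passing the filter, the median was -0.03 and 55.5% were negative. No list was tested.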
